A study of Mus musculus with 6 samples.

Results

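The genes described here are 10 sarcomere genes that come as slow and fast isoforms of the same protein: the troponin I genes Tnni1 and Tnni2, the troponin C genes Tnnc1 and Tnnc2, the troponin T genes Tnnt1 and Tnnt3, and the myosin light chain genes Myl3, Myl1, Myl2 and Mylpf. They were chosen by gene symbol, 5 slow and 5 fast, and matched 11 of the 37979 entries (34616 symbols) of the deposited expression table. Tnnc1 has 2 entries, of which 1 (ENSMUSG00000021909) was at 0.0408 FPKM in a single library and listed at 0 in the other 5, so the entry ENSMUSG00000091898 was used. The study asked what the loss of Kvβ2, a cytosolic subunit of voltage-gated potassium channels encoded by Kcnab2, does to skeletal muscle. RNA from the gastrocnemius (GAS), a hindlimb calf muscle, was sequenced from 3 wildtype (WT) and 3 Kvβ2-/- knockout (KO) male mice at 20 weeks of age, all without treatment and bred from Kvβ2+/- parents. The deletion was present in every tissue, so that nothing in these libraries separates an action within the muscle fiber from one elsewhere in the animal. Each library came from 1 mouse, and the labels do not say which portion of the GAS was taken. Levels are FPKM (fragments per kilobase of transcript, relative to library depth), which can be compared between genes.

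Troponin is the calcium switch of the thin filament: troponin C binds calcium, troponin I holds the filament off at rest, and troponin T ties the complex to tropomyosin. The myosin light chains clasp the lever arm of the myosin head, where the essential light chain (Myl1 in fast fibers, Myl3 in slow fibers) and the regulatory light chain (Mylpf in fast fibers, Myl2 in slow fibers) bind side by side. A muscle fiber expresses the slow or the fast set largely as a block, so these transcripts serve as a readout of fiber type, and mouse GAS is a predominantly fast muscle with slow fibers concentrated in its deep portion. Myl2 and Myl3 are also the light chains of the heart ventricle, and Tnnc1 is the troponin C of the heart.

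The members lie on chromosomes 1, 2, 5, 7, 9 and 14 (GENCODE vM21, GRCm38) and do not form a cluster of slow or of fast genes. Tnni2 (chromosome 7, 142441808 to 142444410) and Tnnt3 (chromosome 7, 142498836 to 142516009) lie on the same strand 54.4 kb apart, both fast genes. Each of the slow genes Tnni1 and Tnnt1 lies beside a cardiac troponin gene. Tnni1 (chromosome 1, 135779434 to 135810989) is 25.4 kb from Tnnt2, and Tnnt1 (chromosome 7, 4504570 to 4516382) is 1.92 kb from Tnni3. The remaining members are Tnnc1 (chromosome 14, 31208312 to 31211729), Tnnc2 (chromosome 2, 164777161 to 164779967), Myl1 (chromosome 1, 66924295 to 66945404), Myl2 (chromosome 5, 122100951 to 122113472), Myl3 (chromosome 9, 110741861 to 110769798) and Mylpf (chromosome 7, 127208890 to 127214298).

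Because the slow members moved together across libraries, the 250 bases before their start sites are shown, with those of 2 fast members for contrast. They come from RefSeq (GRCm38.p6), in which 8 of the 10 members had an entry and 6 had one whose start lay within 50 bases of a GENCODE start. Each is written 5′ to 3′ on the strand of the gene, and capitals mark matches on either strand to the E-box CANNTG, the letters bound by myogenic factors of the MyoD family, and to CATTCC or GGAATG, the letters bound by TEAD factors. The windows of Tnni1, Tnnt1, Myl3 and Mylpf lie inside the annotated gene, and most of the Tnnc2 window does too. The slow members come first.
Tnni1 (chr1:135799171-135799420, plus strand): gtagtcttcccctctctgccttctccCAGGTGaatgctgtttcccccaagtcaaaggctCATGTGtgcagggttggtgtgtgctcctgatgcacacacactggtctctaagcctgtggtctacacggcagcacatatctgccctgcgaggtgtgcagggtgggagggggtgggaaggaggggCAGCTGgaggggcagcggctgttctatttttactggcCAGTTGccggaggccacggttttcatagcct
Tnnc1 (chr14:31208062-31208311, plus strand): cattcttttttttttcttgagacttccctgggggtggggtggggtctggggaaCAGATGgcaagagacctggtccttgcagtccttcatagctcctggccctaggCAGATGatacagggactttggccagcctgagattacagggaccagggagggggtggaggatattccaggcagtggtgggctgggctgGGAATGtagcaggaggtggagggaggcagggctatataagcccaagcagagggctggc
Tnnt1 (chr7:4515976-4516225, minus strand): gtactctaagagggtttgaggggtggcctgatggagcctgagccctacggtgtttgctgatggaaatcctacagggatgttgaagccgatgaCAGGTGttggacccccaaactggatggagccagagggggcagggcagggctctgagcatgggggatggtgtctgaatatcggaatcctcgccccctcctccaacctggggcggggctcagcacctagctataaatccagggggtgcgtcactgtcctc
Myl3 (chr9:110763428-110763677, plus strand): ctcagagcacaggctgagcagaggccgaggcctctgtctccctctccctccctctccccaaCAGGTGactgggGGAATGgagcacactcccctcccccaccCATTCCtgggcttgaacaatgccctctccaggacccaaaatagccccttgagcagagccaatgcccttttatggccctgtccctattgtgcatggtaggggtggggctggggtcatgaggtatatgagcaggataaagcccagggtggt
Tnnc2 (chr2:164779735-164779984, minus strand): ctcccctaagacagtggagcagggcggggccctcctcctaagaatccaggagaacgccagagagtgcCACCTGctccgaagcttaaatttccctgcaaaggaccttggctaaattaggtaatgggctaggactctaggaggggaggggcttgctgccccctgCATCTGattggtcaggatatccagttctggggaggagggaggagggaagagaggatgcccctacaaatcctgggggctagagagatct
Mylpf (chr7:127211358-127211607, plus strand): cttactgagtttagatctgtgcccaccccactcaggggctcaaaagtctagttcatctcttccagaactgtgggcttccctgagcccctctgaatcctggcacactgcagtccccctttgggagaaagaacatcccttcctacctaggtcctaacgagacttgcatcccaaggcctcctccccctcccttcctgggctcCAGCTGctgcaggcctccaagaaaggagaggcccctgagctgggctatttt
An E-box stood in 4 of 4 slow and 2 of 2 fast windows, against 66.2% of all 32851 RefSeq windows of this length. The TEAD letters stood in 2 of 4 slow windows, Tnnc1 and Myl3, and in 0 of 2 fast windows, against 12.6% of all windows. They also stood in the window of the fast member Myl1, left out because its start lay 87 bases from a GENCODE start. The windows of the slow member Myl2, left out for the same reason, held 0. These few windows therefore do not set slow apart from fast members. The MEF2 motif stood in 0 of these 6 windows and in 2.92% of all windows. These matches are descriptions of the letters in the windows and not of binding.

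In the order of replicates 1, 7 and 8, which is kept for all values given here, the targeted gene Kcnab2 (ENSMUSG00000028931, chromosome 4) was at 0.233, 0.10 and 0.110 FPKM in WT and 0, 0.0151 and 0 FPKM in KO muscle. The genotypes did not overlap (p = 0.1 by a two-sided exact permutation test, which cannot go lower with 3 against 3 libraries). Kcnab2 averaged under 0.5 FPKM, the lower limit for the test of all genes, and was not tested there. Its levels rest on few fragments: 1 fragment per kilobase of transcript was 0.0476 to 0.0494 FPKM in WT and 0.0515 to 0.0669 FPKM in KO libraries. Depth, estimated from the steps of whole fragments in low FPKM values, was 20260000 to 21020000 fragments per WT library and 14940000 to 19410000 per KO library, every KO library being less deep. Of the myofiber markers, Acta1 was at 5029 FPKM or more and Ckm at 2675 FPKM or more in each library. A listed 0 need not be a measured absence: Myh4 and Atp2a1, among the main genes of fast fibers, were listed at 0 in all 6 libraries, and Ttn and Tpm1 in all 3 WT libraries. WT replicate 8 stood apart from the other libraries in every slow member, and the results that rest on it are given with and without it.

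The slow isoforms made up a small share of the sarcomere transcripts of GAS, and their level differed from mouse to mouse far more than any fast isoform. The 5 slow members summed to 735, 511 and 31.2 FPKM in WT and to 267, 882 and 1525 FPKM in KO muscle. The 4 measured fast members summed to 42552 to 59038 FPKM. The fast members together held 9.86% to 14.6% of all FPKM of a library and the slow members 0.00776% to 0.319%.

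**Figure D1:**
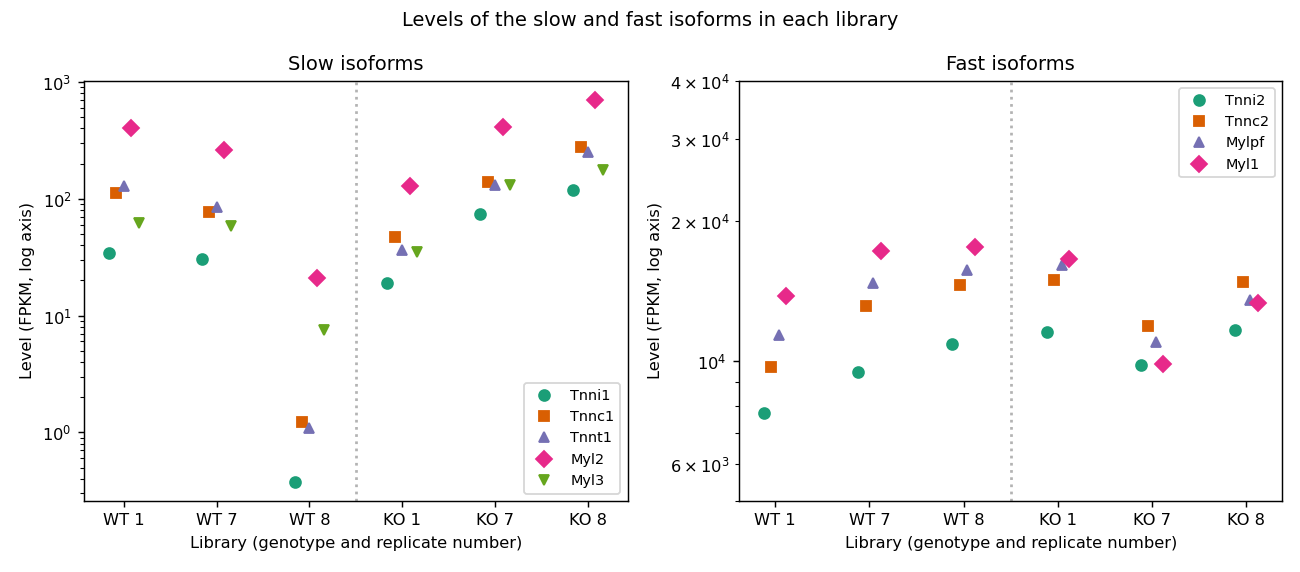
Levels in FPKM on log axes of the 5 slow members (left) and the 4 fast members above 0 (right), 1 point per library. All slow members are lowest in WT 8, with Tnni1 at 0.378 FPKM, and highest in KO 8, while the fast members stay between 7742 and 17593 FPKM.

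Among the slow troponins, Tnni1 (ENSMUSG00000026418), which encodes slow skeletal troponin I, was at 34.4, 30.5 and 0.378 FPKM in WT and 18.9, 73.3 and 119 FPKM in KO muscle. KO replicates 7 and 8 were above all WT libraries, but KO replicate 1 was under WT replicates 1 and 7, so the genotypes overlapped. Tnnc1, the troponin C shared by slow muscle and heart, was at 111, 77.4 and 1.22 FPKM in WT and 47.4, 138.03 and 279 FPKM in KO muscle. Tnnt1 (ENSMUSG00000064179), slow skeletal troponin T, was at 128, 84.5 and 1.10 FPKM in WT and 36.5, 132 and 251 FPKM in KO muscle. Both had the same order of libraries as Tnni1. In WT replicate 8 the 3 slow troponins were 77.5 to 96.9 times lower than the mean of the other WT libraries. At the depth of that library, its Tnni1 value stood for 7.94 fragments per kilobase of transcript, its Tnnt1 value for 23.1 and its Tnnc1 value for 25.6, so these low values carry a large relative counting error.

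The slow light chains followed the same order of libraries with a smaller spread. Myl2 (ENSMUSG00000013936), the slow and ventricular regulatory light chain, was at 399, 260.3 and 20.99 FPKM in WT and 129, 408 and 698 FPKM in KO muscle. It was the most abundant slow member in every library. Myl3 (ENSMUSG00000059741), the slow and ventricular essential light chain, was at 61.5, 58.3 and 7.52 FPKM in WT and 35.1, 131 and 177 FPKM in KO muscle. WT replicate 8 was again the lowest library, but 15.7 times (Myl2) and 7.96 times (Myl3) under the mean of the other WT libraries.

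The fast members were high and even. Tnni2 (ENSMUSG00000031097), fast troponin I, was at 7742, 9464 and 10858 FPKM in WT and 11524, 9814.5 and 11647 FPKM in KO muscle. Tnnc2 (ENSMUSG00000017300), fast troponin C, was at 9713, 13154 and 14595 FPKM in WT and 14935, 11901 and 14799 FPKM in KO muscle. For both, WT replicate 1 was the lowest of all libraries, and the other 5 libraries of the 2 genotypes overlapped. Myl1 (ENSMUSG00000061816), the fast essential light chain, was at 13809, 17210.3 and 17593 FPKM in WT and 16535, 9868 and 13344 FPKM in KO muscle. Mylpf (ENSMUSG00000030672), the fast regulatory light chain, was at 11346.5, 14744 and 15705 FPKM in WT and 16044, 10968 and 13508 FPKM in KO muscle. KO replicate 7 was the lowest library for both light chains. Within WT, replicate 8, the lowest library for each slow member, was the highest for each of these 4 fast members. Tnnt3 (ENSMUSG00000061723), fast troponin T, was listed at 0 in all 6 libraries, so it was neither tested nor used in a ratio.

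The comparison of KO with WT asked whether the loss of Kvβ2 came with a change of slow or fast isoforms. No member passed the test: 0 of the 9 tested members had an adjusted p under 0.05 in limma, where 0.251% of all 12334 tested genes were called higher and 0.073% lower in KO. At an unadjusted p under 0.05 there were also 0 members, against 15.3% of tested genes higher and 10.9% lower. In 0 members were the 3 KO libraries all higher than the 3 WT libraries, as they were for 18.3% of tested genes, or all lower, as for 16.2%.

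The estimates for the slow members were large and poorly determined. The log2 fold change, KO against WT on the log2(FPKM + 0.1) scale, was 2.79 for Tnni1 (standard error 1.60, limma adjusted p = 0.301), 2.44 for Tnnc1 (1.60, adjusted p = 0.363) and 2.18 for Tnnt1 (1.69, adjusted p = 0.436). Those of Myl3 and Myl2 were 1.63 (0.90, adjusted p = 0.284) and 1.35 (1.11, adjusted p = 0.458). A single library set the size of these values. Without WT replicate 8 the log2 fold change was 0.76 for Tnni1, 0.40 for Tnnc1, 0.034 for Tnnt1, 0.64 for Myl3 and 0.043 for Myl2, and the median over the 5 slow members went from 2.18 to 0.40. The median over all tested genes was 0.0102. Exact permutation tests over the 6 libraries gave p = 0.3 for Tnni1 and Myl3, 0.4 for Tnnc1 and 0.5 for Tnnt1 and Myl2 (two-sided).

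For the fast members the estimates were small with small errors. The log2 fold change was 0.24 for Tnni2 (standard error 0.17, limma adjusted p = 0.380), 0.17 for Tnnc2 (0.19, adjusted p = 0.607), -0.31 for Myl1 (0.21, adjusted p = 0.380) and -0.048 for Mylpf (0.20, adjusted p = 0.896). Without WT replicate 8 they were 0.36, 0.29, -0.25 and 0.045. The direction of Tnni2 and Tnnc2 depended on the processing. After each library was corrected for GC content, the share of G and C bases of the transcripts, both were at -0.14. Myl1 was then at -0.24 and Mylpf at -0.17. Quantile scaling, which has no GC term, also turned Tnni2 (-0.28) and Tnnc2 (-0.026). The GC correction left the slow members at 1.32 to 2.49.

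**Figure D2:**
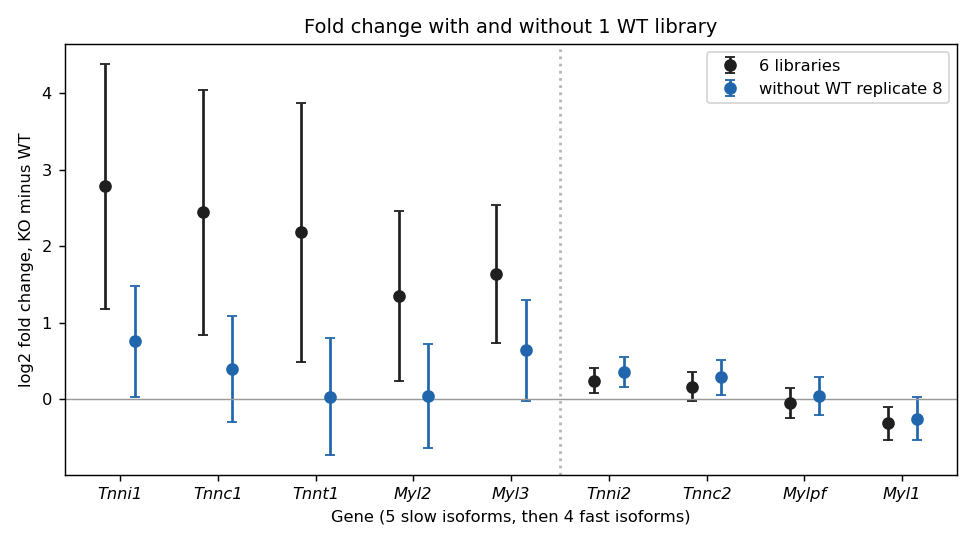
Log2 fold change of KO against WT on the log2(FPKM + 0.1) scale for the 9 tested members, with points for the limma estimate and bars for 1 standard error, in all 6 libraries (black) and without WT replicate 8 (blue). The slow members fall from between 1.35 and 2.79 to between 0.034 and 0.76 when that library is left out, and the fast members lie close to 0 either way.

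The slow to fast ratio within a library does not depend on how the library was scaled. For troponin I, Tnni1 was 0.445%, 0.323% and 0.00348% of Tnni2 in WT and 0.164%, 0.747% and 1.02% in KO muscle. For troponin C, Tnnc1 was 1.15%, 0.589% and 0.00835% of Tnnc2 in WT and 0.318%, 1.16% and 1.89% in KO muscle. The essential light chain Myl3 was 0.445%, 0.339% and 0.0428% of Myl1 in WT and 0.212%, 1.33% and 1.33% in KO muscle. In all 3, KO replicates 7 and 8 were the highest libraries, KO replicate 1 lay under WT replicates 1 and 7, and WT replicate 8 was the lowest. The regulatory light chain Myl2 was 3.52%, 1.77% and 0.134% of Mylpf in WT and 0.802%, 3.72% and 5.17% in KO muscle, the highest slow share of the 4 pairs in every library. Even in KO replicate 8 the fast isoform exceeded the slow one 97.6-fold for troponin I, 53.0-fold for troponin C, 75.2-fold for the essential and 19.3-fold for the regulatory light chain.

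As group means, Tnni1 was 0.257% ± 0.228 of Tnni2 in WT and 0.645% ± 0.439 in KO muscle (SD, n = 3 each), and Tnnc1 was 0.582% ± 0.570 of Tnnc2 in WT and 1.12% ± 0.784 in KO muscle. Myl3 was 0.276% ± 0.209 of Myl1 in WT and 0.956% ± 0.644 in KO muscle, and Myl2 was 1.81% ± 1.69 of Mylpf in WT and 3.23% ± 2.22 in KO muscle. The difference of the mean log2 ratio, KO against WT, was 2.66 for troponin I, 2.31 for troponin C, 1.95 for the essential and 1.40 for the regulatory light chain. None could be distinguished from the spread between mice: the exact permutation tests gave p = 0.4, 0.5, 0.3 and 0.5 (two-sided, each 0.5 after Benjamini-Hochberg adjustment over the 4 pairs). Without WT replicate 8 the differences were 0.40, 0.11, 0.89 and -0.0023, so that for the regulatory light chain the direction turned. Averaged over the pairs, the log2 ratio was -6.72, -7.43 and -12.27 in WT (mean -8.81 ± 3.02, SD) and -8.35, -6.12 and -5.71 in KO muscle (mean -6.73 ± 1.42, SD). Its range over the 6 libraries was 6.56, against a difference of 2.08 between genotypes, or 0.35 without WT replicate 8.

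**Figure D3:**
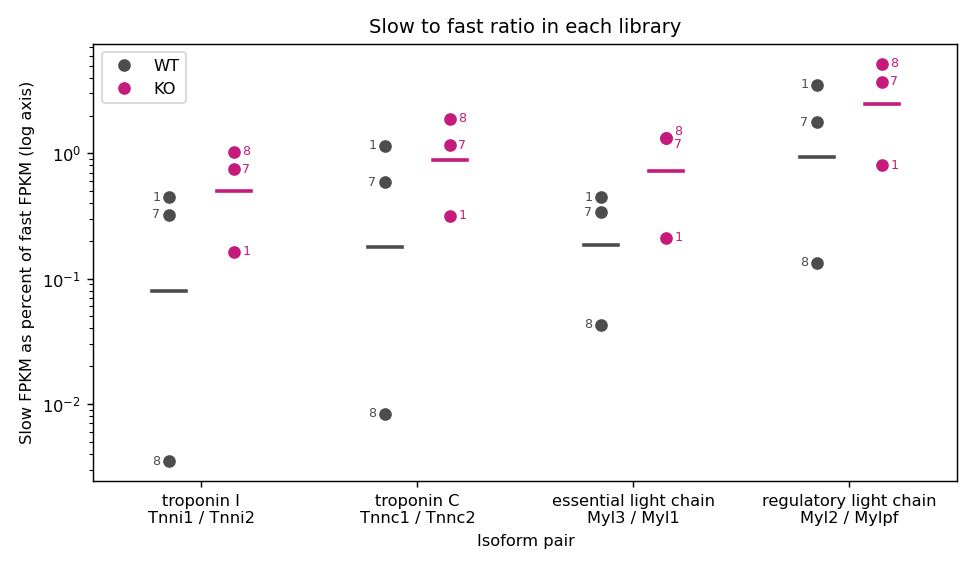
Slow isoform as a percent of its fast isoform in FPKM (log axis) for 4 isoform pairs, 1 point per library with its replicate number, WT in grey and KO in magenta; bars are geometric means. The same order holds in every pair, from KO 8 and KO 7 down to WT 8, which lies at 0.00348% for troponin I.

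The slow members varied together. Each of the 5 ranked the libraries in 1 order, from KO replicate 8 through KO replicate 7, WT replicate 1, WT replicate 7 and KO replicate 1 down to WT replicate 8. Over the 6 libraries the Pearson correlation of their log2 levels was 0.96 to 1.00 in the 10 pairs, with a median of 0.98, and 0.91 to 1.00 without WT replicate 8. These are descriptions over few libraries, which share their depth between genes. The highest library was above the lowest by 316-fold for Tnni1, 229-fold for Tnnc1, 228-fold for Tnnt1, 33.3-fold for Myl2 and 23.6-fold for Myl3, but by only 1.46-fold to 1.78-fold for the 4 fast members. Among the 3974 genes that were above 0 in every library and averaged at least 10 FPKM, the slow members took ranks 2, 3, 4, 7 and 8 for the range of log2 levels over the libraries. The slow myosin heavy chain Myh7, whose lowest level was close to 1 fragment per kilobase, was at rank 1 and the slow tropomyosin Tpm3 at rank 6. The fast members Tnni2, Tnnc2 and Mylpf took ranks 1706 to 2094, near the middle, where the median range was 0.57 on the log2 scale. Myl1 varied more, at rank 866 with a range of 0.83. Within a genotype, the log2 range of the slow members was 3.01 to 6.74 in WT and 2.33 to 2.78 in KO muscle. In bulk muscle, fewer slow fibers in a sample and less slow transcript per fiber cannot be told apart, and neither can the portion of the muscle that was sampled. The 20 correlations of a slow with a fast member ran from -0.71 to -0.11, with a median of -0.48, and without WT replicate 8 from -0.71 to 0.22, with a median of -0.37.

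Among the slow members the light chains behaved differently from the troponins in 1 library. Relative to Tnnt1, the level of Myl2 was 2.78 to 3.52 in 5 libraries and 19.1 in WT replicate 8, and that of Myl3 was 0.479 to 0.990 in 5 libraries and 6.85 in WT replicate 8. Tnnc1 kept to 0.868 to 1.30 times Tnnt1, with 1.11 in WT replicate 8. WT replicate 8 thus held more Myl2 and Myl3, which the ventricle also expresses, than its slow troponins would give at the ratios of the other libraries, but not more Tnnc1. Of 6 cardiac markers, 4 were higher in that library than in the other WT libraries, all at low levels. The atrial genes Nppa and Myl7 were at 2.60 and 2.95 FPKM in WT replicate 8, and at most at 0.375 and 0.305 FPKM in any other library. The cardiac troponins Tnni3 and Tnnt2 were at 2.09 and 8.27 FPKM there, with 3.27 and 7.46 FPKM in KO replicate 7. Myh6, the atrial and adult mouse heart myosin, was at 1.17 FPKM, the lowest of the 6 libraries, and Nppb was listed at 0. The 6 cardiac markers summed to 7.48, 4.17 and 17.1 FPKM in WT and 4.52, 17.4 and 11.3 FPKM in KO muscle, and their part in the Myl2 and Myl3 levels was not tested.

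**Figure D4:**
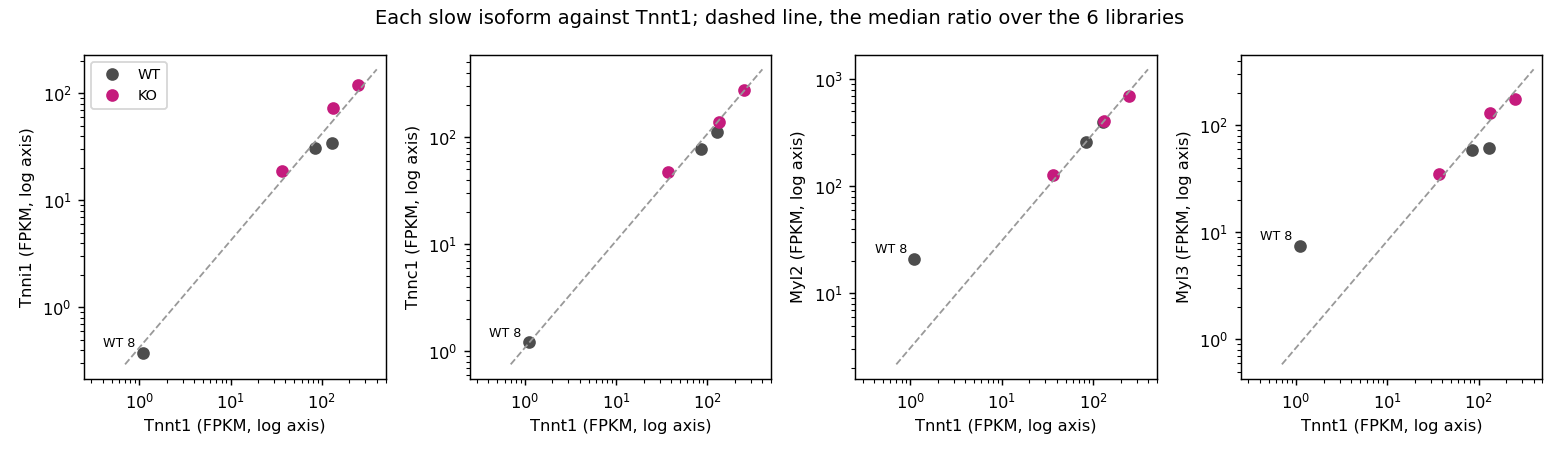
Level of 4 slow members against that of Tnnt1 in the 6 libraries (FPKM, log axes), WT in grey and KO in magenta, with a dashed line at the median ratio. WT 8 falls on the line for Tnni1 and Tnnc1 but above it for Myl2, at 19.1 times Tnnt1, and Myl3, at 6.85 times.

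The order of levels was steadier than the levels. Among slow members, Myl2 was the highest and Tnni1 the lowest in every library, and Tnnc1 and Tnnt1 exchanged places, Tnnt1 being the higher in WT replicates 1 and 7 and Tnnc1 in the other 4 libraries. Myl3 ranked just above Tnni1 in all libraries but WT replicate 8, where it ranked just under Myl2. Among fast members, Tnni2 was the lowest in every library. Myl1 was highest, followed by Mylpf and Tnnc2, in the 3 WT libraries and in KO replicate 1, while in KO replicates 7 and 8 the order was Tnnc2, Mylpf and Myl1.

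The ratios among the fast members mostly did not overlap between genotypes in the deposited values, and all overlapped after the correction for GC content. The ratio of Myl1 to Tnni2 was 1.78, 1.82 and 1.62 in WT and 1.44, 1.01 and 1.15 in KO muscle, and that of Myl1 to Tnnc2 was 1.42, 1.31 and 1.21 in WT and 1.11, 0.829 and 0.902 in KO muscle. The ratio of Mylpf to Tnni2 was 1.47, 1.56 and 1.45 in WT and 1.39, 1.12 and 1.16 in KO muscle. In these 3 ratios of a light chain to a troponin, every KO library was under every WT library, and so it was for Mylpf to Tnnc2. The log2 differences of the 4 were -0.56, -0.48, -0.29 and -0.21. The ratio of Mylpf to Myl1 was 0.822, 0.857 and 0.893 in WT and 0.970, 1.11 and 1.01 in KO muscle, all KO libraries being higher. Of the 6 ratios between fast members, 5 did not overlap between genotypes, which is an outcome of 40.6% of all pairs among the 3974 genes named above. Myl1 had the lowest GC content of the members, 47.8%, and Tnni2 the highest, 56.0%. After the correction, all 6 ratios overlapped, with log2 differences of -0.094 for Myl1 to Tnni2 and -0.098 for Myl1 to Tnnc2, where 23% of all pairs did not overlap.

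Among the slow members, 4 of 10 ratios did not overlap, close to the share of all pairs. Tnni1 was 0.268, 0.361 and 0.344 times Tnnt1 in WT and 0.518, 0.554 and 0.476 times in KO muscle, a log2 difference of 0.68, or 0.61 after the GC correction. It was 0.55 to 0.76 when any 1 library was left out. With 1 FPKM added to both genes it was 0.36 and the genotypes overlapped (p = 0.4, exact permutation test, two-sided). Myl2 was 11.6, 8.52 and 55.5 times Tnni1 in WT and 6.80, 5.57 and 5.85 times in KO muscle. Its log2 difference was -1.54, and -0.72 without WT replicate 8 or -0.95 with 1 FPKM added to both genes. Myl2 to Tnnc1 also did not overlap, with a log2 difference of -1.12, and -0.35 without WT replicate 8. Tnni1 to Tnnc1, at 0.42, overlapped both after the GC correction (0.19) and with 1 FPKM added to both genes (0.088, p = 0.8, exact permutation test). After the GC correction 4 of 10 ratios again did not overlap, Tnnc1 to Tnnt1 in place of Tnni1 to Tnnc1, where 23% of all pairs did not. Each of the 9 ratios without overlap had p = 0.1 in the exact permutation test (two-sided), the smallest it can give, and 0.178 after Benjamini-Hochberg adjustment over the 16 ratios. These ratios within a type were chosen after the values were seen.

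The other genes of slow fibers were described from a list of 14, of which all were tested and 0 were called in either direction by limma, 0 also at an unadjusted p under 0.05. Their median log2 fold change was 0.92, and 0.17 without WT replicate 8. Myh7 was at 24.3, 22.1 and 0.0513 FPKM in WT and 15.2, 50.5 and 77.4 FPKM in KO muscle, and Tpm3 was at 191, 128 and 8.24 FPKM in WT and 65.6, 175 and 321 FPKM in KO muscle. Of the 14 genes, 10 were lowest in WT replicate 8, 7 were highest in KO replicate 8 and 9 correlated with the mean of the slow members at over 0.8. In the lists described below, so did 2 of 14 tested fast fiber genes and 2 of 11 tested thin filament genes. Of the fiber type regulators 1 of 26 did, and of the other troponin and light chain genes 1 of 10. The fall in WT replicate 8 differed between the 14 slow fiber genes. The other WT libraries averaged 452 times its level for Myh7, 18.3 times for Myh7b, 19.4 times for Tpm3, 5.98 times for the slow calcium pump Atp2a2, 5.41 times for Myoz2, 2.85 times for Mybpc1 and 2.03 times for Casq2. For the rest of the list it was 0.547 times for Pln, 1.05 times for Ankrd2 and 1.61 to 2.66 times for the others. Pln was thus higher in WT replicate 8 than the mean of the other WT libraries. The slow members, at 7.96 to 96.9 times, stood under Myh7 and above Atp2a2 and Casq2. The Myh7 level in WT replicate 8 was close to that of 1 fragment per kilobase of transcript, 0.0476 FPKM in that library. Its value of 452 times is therefore poorly determined. Of 10843 other genes that averaged at least 1 FPKM, those most correlated with the mean of the slow members over the 6 libraries were Tpm3 (0.994), Myh7 (0.991), Ccdc62 (0.988), Meaf6 (0.983) and AI838599 (0.981). Without WT replicate 8 these correlations were 0.967, 0.969, 0.910, 0.918 and 0.847.

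**Figure D5:**
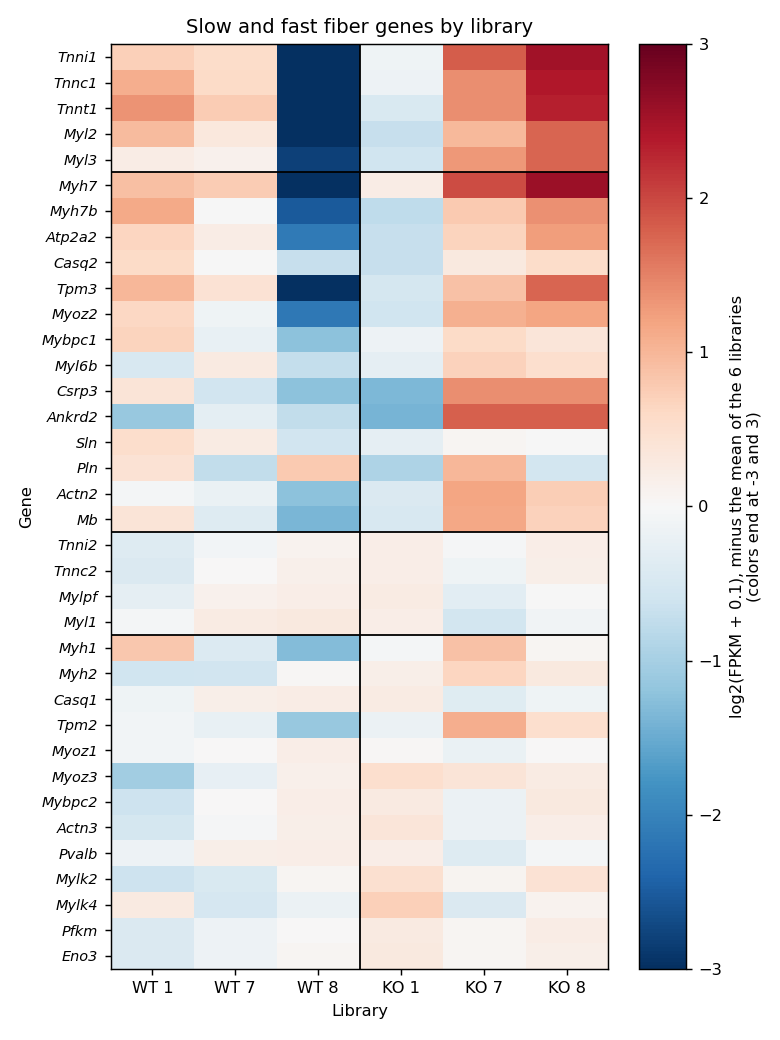
Heat map of log2(FPKM + 0.1) less the mean of the 6 libraries for the 5 slow members, 14 other slow fiber genes, 4 fast members and 13 other fast fiber genes above 0 in every library. The slow members, Myh7 and Tpm3 share the deepest blue in WT 8 and the deepest red in KO 8, and the fast members are nearly blank.

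Of 16 other fast fiber genes 14 were tested, and 1 was called. This was Tpm1, a fast tropomyosin gene, which was listed at 0 in the 3 WT libraries and at 14651 to 19415 FPKM in KO muscle. Myh4 and Atp2a1 were listed at 0 in every library. At an unadjusted p under 0.05, 6 of the 14 were higher in KO, Tpm1 among them, and 0 lower, against 15.3% and 10.9% of all tested genes. The median log2 fold change was 0.36. Without overlap between the genotypes, 6 were higher in KO and 0 lower, against 18.3% and 16.2% of all tested genes. Beside Tpm1 these were Myoz3 (0.76), Myh2, the IIa myosin heavy chain (0.75), and Mylk2, the kinase of the skeletal regulatory light chain (0.68). The others were Pfkm, muscle phosphofructokinase (0.37), and Eno3 (0.35). Apart from Tpm1, these log2 fold changes did not pass the adjusted test. Mylk2 was at 227, 257 and 369 FPKM in WT and 494, 374 and 477 FPKM in KO muscle.

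Of 11 other troponin and light chain genes and light chain kinases, 10 were tested and 0 were called by limma. At an unadjusted p under 0.05, 3 were higher in KO and 0 lower, against 15.3% and 10.9% of all tested genes. The embryonic and atrial light chain Myl4 was at 4.69, 2.76 and 2.28 FPKM in WT and 5.44, 7.03 and 5.85 FPKM in KO muscle. Its log2 fold change was 0.95 (standard error 0.26, limma adjusted p = 0.0944). The nonmuscle light chains Myl12a and Myl6 were at log2 fold changes of 0.59 and 0.40. In these 3 genes every KO library was above every WT library, as in 18.3% of all tested genes. Myl10 was listed at 0 in WT replicate 8, and Myl7 in WT replicate 1 and KO replicate 7. Of 12 thin filament genes 11 were tested and 0 were called, with 1 higher and 1 lower at an unadjusted p under 0.05. Skeletal actin Acta1 was at 5029, 8435 and 9656 FPKM in WT and 12044.5, 13917 and 13703 FPKM in KO muscle. Its log2 fold change was 0.83 (standard error 0.24, limma adjusted p = 0.104). Cfl2, Tmod4 and Ldb3 also had no overlap, at log2 fold changes of -0.48, -0.24 and 0.21.

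Of 27 regulators of fiber type 26 were tested. Esrra, an orphan nuclear receptor of oxidative metabolism, was the 1 gene called. It was at 6.26, 7.78 and 9.68 FPKM in WT and 17.7, 21.8 and 18.5 FPKM in KO muscle. Its log2 fold change was 1.30 (standard error 0.17, limma adjusted p = 0.0435). This call was lost in 12 of 17 alternatives, among them the GC correction, in which the log2 fold change was 0.74 (adjusted p = 0.160). With 1 library left out, Esrra was called only without WT replicate 8. Its order of libraries was not that of the slow members, with which its correlation was 0.29. Without overlap between the genotypes, 5 of the 26 were higher in KO, Esrra among them, and 3 lower, against 18.3% and 16.2% of all tested genes. The others higher were Mafa, a transcription factor of the large Maf family, Six5, Mef2d and Nfatc2, at log2 fold changes of 2.03, 0.72, 0.54 and 0.42. Those lower were Trim33, Nfatc3 and Mef2a, at -0.46, -0.39 and -0.29. At an unadjusted p under 0.05, 5 were higher and 3 lower, against 15.3% and 10.9% of all tested genes. The median over the 26 genes was 0.019.

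Markers of other cells were measured in the same libraries. The Schwann cell markers, of the sheath of motor nerves, moved most nearly with the slow members: their sum was 69.0, 106 and 28.4 FPKM in WT and 32.5, 138 and 57.3 FPKM in KO muscle, lowest in WT replicate 8 and KO replicate 1, the lowest libraries for the slow members too, but highest in KO replicate 7. All 6 were detected, and their correlation with the mean of the slow members was 0.50 to 0.76. Of the 6 adipocyte markers, 4 were higher in KO at an unadjusted p under 0.05, against 15.3% of all tested genes. The 6 summed to 444, 234 and 236 FPKM in WT and 302, 618 and 339 FPKM in KO muscle. Sums of the endothelial markers stayed at 37.6 to 49.4 FPKM, those of smooth muscle at 19.7 to 50.8, of fibroblast and tendon at 386 to 619.9, of leukocytes at 14.9 to 38.7, of satellite cells at 1.55 to 2.50 and of red blood cells at 64.9 to 228 FPKM. In these lists limma called 0 genes. At an unadjusted p under 0.05, KO was higher in 3 smooth muscle, 2 red blood cell, 1 endothelial and 1 fibroblast marker and lower in 1 endothelial marker. Tested were 3 smooth muscle, 3 red blood cell, 5 endothelial and 7 fibroblast and tendon markers. Of all tested genes, 15.3% were higher and 10.9% lower at this threshold. The part of these cells in the levels of the slow members was not tested. Of the 10 myofiber markers 9 were tested and 1 was called, Ttn, which was listed at 0 in WT and at 151 to 189.8 FPKM in KO muscle. At an unadjusted p under 0.05, 5 of the 9 were higher in KO, Ttn among them, and 0 lower. The others were Acta1, Ckm, Des and Ryr1, at log2 fold changes of 0.83, 0.81, 0.71 and 0.46. In all 5 every KO library was above every WT library, as in 18.3% of all tested genes.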

How the data were processed

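Total RNA of the GAS was converted by the study to libraries with a stranded mRNA kit and sequenced in pairs. The authors aligned them to GRCm38 (TopHat), and the deposited values are FPKM per gene (Cufflinks), without counts. The tool versions and the annotation release are not given in the sources used here. Fragments of paralogs and overlapping genes may be shared in ways the FPKM do not show.

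The 10 members and all gene lists were chosen with earlier results of these data known. The table was tested whole with limma 3.58.1 (R 4.3.3) on log2(FPKM + 0.1), with a variance trend, for the 12334 genes that averaged at least 0.5 FPKM, KO against WT with no covariate and Benjamini-Hochberg adjustment (called at 0.05). The pseudocount understates the change of low genes. Slow to fast ratios used FPKM as deposited. Single values were compared by exact permutation over libraries, two-sided, of which the smallest p is 0.1 for 3 against 3. The script was tested on simulated data. The libraries of a group were separate mice, and no pair of libraries was a duplicate.

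Depth was estimated from FPKM of genes with 1 transcript of 1500 to 6000 bases, of which 90.9% to 94.7% of low values lay within 0.15 of a whole fragment. Coordinates and GC content came from GENCODE vM21, where GC was known for 97.2% of tested genes, and GC was corrected by loess (span 0.3). Both genotypes carry the numbers 1, 7 and 8, but deviations of same-numbered libraries correlated at -0.025, -0.080 and 0.034, so they were not paired. Named are all members, Kcnab2, called genes of the lists, up to 4 more per list without overlap of genotypes by size, list genes at 0, and the 5 genes most correlated with the slow members. Other genes were named after their values were seen. Alternatives covered the pseudocount, filter, scaling, variance model, weights, block, GC, zeros and each library left out. Scripts ran in Python 3.11.15 and figures in matplotlib 3.10.9.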

Additional observations from a re-analysis of the deposited data

How the results depend on the processing

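With 3 mice per genotype, of which 1 set the size of the slow members' fold changes, these data leave a change of the slow isoforms undetermined. Tnnt3, Myh4 and Atp2a1 were listed at 0 throughout, and the slow troponin levels in WT replicate 8 rest on few fragments. Over 18 settings, 0 members were called and their adjusted p lay between 0.0841 and 1. Of 153 member fold changes under the alternatives, 146 kept their direction and side of the threshold and 7 turned: Tnni2 to -0.28 (quantile scaling) and -0.14 (GC correction), Tnnc2 to -0.026, -0.14 and, without WT replicate 1, -0.0054, and Mylpf to 0.045 without WT replicate 8 and 0.093 without KO replicate 7. The cause was not tested. With each library left out in turn, Tnnc2 ran from -0.0054 to 0.29 and Mylpf from -0.19 to 0.093.

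The ratio differences ran, with each library left out in turn, from 0.40 to 3.90 for troponin I, 0.11 to 3.66 for troponin C, 0.89 to 2.83 for the essential and -0.0023 to 2.36 for the regulatory light chain, and from 0.35 to 3.12 for their mean. The lowest values were those without WT replicate 8, and for the regulatory light chain the direction turned only there.

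Over all genes, 40 were called. A pseudocount of 1 gave 11, no filter 20, median scaling 25, quantile scaling 18, no variance trend 19, array weights 3147, the GC correction 14 and leaving out genes listed at 0 gave 1, and each library left out in turn gave 11 to 38. Of the fixed lists 2 genes were called, and 1 with a pseudocount of 1, no filter, quantile scaling, no trend or the GC correction, 22 with array weights, 0 without genes listed at 0, and 1 to 2 with a library left out. Tpm1 was called wherever it was tested. As it was listed at 0 in the 3 WT libraries, which need not be a measured absence, this is not read as a firmer result. The call lost was that of Esrra. With the replicate number as a block, 13 genes and 1 list gene were called and 0 members. The labels do not say whether equal numbers pair the mice, and the low correlations of their deviations cannot settle it. A call lost under the block is therefore not read as a weaker effect.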
